A study of Mus musculus with 10 samples.

Results

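Interferon response and antigen presentation genes were examined in 2 subregions of the mouse nucleus accumbens in the ventral striatum, its lateral shell and its medial shell. The members were 41 genes listed by symbol, and 33 of them had a row in the deposited expression table of 20483 genes. Irf7, Tap1, Oasl2, Trim25, Ddx58, Ifih1, Dhx58 and Parp14 had no row and were not analysed here, so no RNA sensor of the list could be described. The study asks how subregions of the nucleus accumbens process reward. Tissue of wild-type (WT) mice was captured from the lateral shell (5 libraries) and from the medial shell (5 libraries) by Geo-seq, in which small areas of a section are cut out by laser and their RNA is amplified. No treatment is given in the labels, and they state neither strain nor sex nor age. The labels name biological replicates without saying whether each came from its own animal, so p-values describe the spread between these libraries, part of which may be technical.

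Interferons are secreted proteins through which cells announce infection. Type I interferons bind a receptor built from Ifnar1 and Ifnar2, and interferon-gamma binds one built from Ifngr1 and Ifngr2; both act through Janus kinases and STAT proteins. A complex that holds Stat2 and Irf9 binds a DNA element called ISRE in the promoters of antiviral genes, and interferon-gamma acts through another element, called GAS. Class I antigen presentation is among the processes that interferons induce: proteasomes cut proteins into peptides, Tap carriers and tapasin load these onto heavy chains such as H2-K1 and H2-D1, and B2m is the light chain that each heavy chain needs. In healthy brain, microglia and vascular cells are among the usual sites of these transcripts.

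RefSeq promoters of GRCm38.p6, running from 250 bases before the transcription start to 50 after it, were found for 35 of the 41 members and 29 of the 33 with a row. A core of the ISRE, GAAA followed by any 2 bases and GAAA again, was searched on both strands and occurred in 11 of those 29 genes, in B2m, Bst2, Ifit1, Ifit3, Ifit3b, Ifitm2, Ifitm3, Irf2, Isg15, Rsad2 and Stat2. Some genes have more than 1 promoter. Counted by single promoter, the core occurred in 13 of the 41 promoters of the 35 members and in 3.44% of all 32851 promoters of that length. The palindrome TTCNNNGAA, the GAS element, occurred in 8 of the 29 genes. By single promoter it occurred in 8 of the 41 promoters of members and in 8.30% of all promoters. Below are 4 promoters, shown because their genes carry the same motif letters but stand apart in level or in regional difference: Bst2, which differed between the regions, and Isg15, Ifit3 and B2m, which did not pass the test. They lie at chr8:71537423-71537722 on the minus strand, chr4:156200769-156201068 on the minus strand, chr19:34583279-34583578 on the plus strand and chr2:122147437-122147736 on the plus strand. Each is written 5′ to 3′ on the strand of its gene, and capitals mark every match to either motif. In Bst2 the capitals join 1 GAS match and 2 ISRE matches that overlap, the first beginning at position -136 from the start. In Isg15 they join 3 overlapping ISRE matches, and in Ifit3 the matches lie on the opposite strand.
Bst2: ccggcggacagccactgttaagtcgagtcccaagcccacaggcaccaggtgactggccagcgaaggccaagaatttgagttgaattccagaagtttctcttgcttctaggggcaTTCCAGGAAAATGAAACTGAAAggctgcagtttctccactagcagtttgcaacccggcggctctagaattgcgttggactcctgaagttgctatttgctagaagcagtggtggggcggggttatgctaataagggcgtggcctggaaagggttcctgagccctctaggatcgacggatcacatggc
Isg15: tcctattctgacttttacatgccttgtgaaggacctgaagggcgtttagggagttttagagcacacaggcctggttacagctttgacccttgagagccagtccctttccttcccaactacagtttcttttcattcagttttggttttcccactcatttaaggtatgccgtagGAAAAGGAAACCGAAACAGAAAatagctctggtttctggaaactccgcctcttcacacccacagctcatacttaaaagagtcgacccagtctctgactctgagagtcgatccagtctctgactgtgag
Ifit3: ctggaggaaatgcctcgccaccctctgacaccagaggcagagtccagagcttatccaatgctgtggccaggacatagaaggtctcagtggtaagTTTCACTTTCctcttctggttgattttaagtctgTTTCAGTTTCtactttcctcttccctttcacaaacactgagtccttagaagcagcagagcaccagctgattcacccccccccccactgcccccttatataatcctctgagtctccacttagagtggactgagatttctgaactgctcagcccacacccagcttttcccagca
B2m: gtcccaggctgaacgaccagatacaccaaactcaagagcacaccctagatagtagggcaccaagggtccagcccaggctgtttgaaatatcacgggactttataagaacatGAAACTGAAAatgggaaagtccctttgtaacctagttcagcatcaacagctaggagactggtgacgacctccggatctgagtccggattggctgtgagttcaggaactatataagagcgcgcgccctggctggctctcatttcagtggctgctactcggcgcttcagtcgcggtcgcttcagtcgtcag

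The values are TPM, a transcript abundance that the authors divided by gene length and scaled to 1000000 per library, so levels of different genes can be set side by side but sequencing depth is unknown. A gene at 0 is described as listed at 0, since a 0 in some library was also found for 20 of the 4272 genes whose mean was 20 TPM or more. Libraries listed 15402 to 17003 genes above 0, and the mitochondrial genome supplied 23.5% to 35.3% of the TPM. All 14 striatal neuron markers had a row, with a summed level of 4381 to 6614 TPM in lateral and 4726 to 7206 TPM in medial libraries. The transcript AY036118 was at 1.38 TPM in lateral replicate 5 and 1.42 TPM in medial replicate 2, while the other libraries were at 82500 TPM or above. Differences were tested with limma on log2(TPM + 1) over 15596 genes with at least 1 TPM in at least 5 libraries, and an adjusted p under 0.05 counted as a difference. Each log2 difference is lateral minus medial. Over all genes tested its median was -0.21, and it was -0.02 under median-ratio scaling and 0.00 (-0.00101) under quantile normalization. Calls numbered 60 towards lateral and 171 towards medial, 88 and 82 under median-ratio scaling and 86 and 100 under quantile normalization.

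B2m was by far the most abundant member. B2m had a mean of at least 100 TPM over the 10 libraries, 5 members had at least 20 TPM, and 10 had at least 10 TPM. Ifitm3, H2-D1, Ifi27 and Psmb10 followed B2m. B2m supplied 37.1% to 53.6% of the summed TPM of the 33 members in a library. At the other end 11 members had a mean under 2 TPM, and 15 were listed at 0 in at least 1 library. The filter on low values left 25 members for the test and kept out Rtp4, Ifit1, Rsad2, Xaf1, Psmb8, Usp18, Irf1 and Psmb9.

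**Figure D1:**
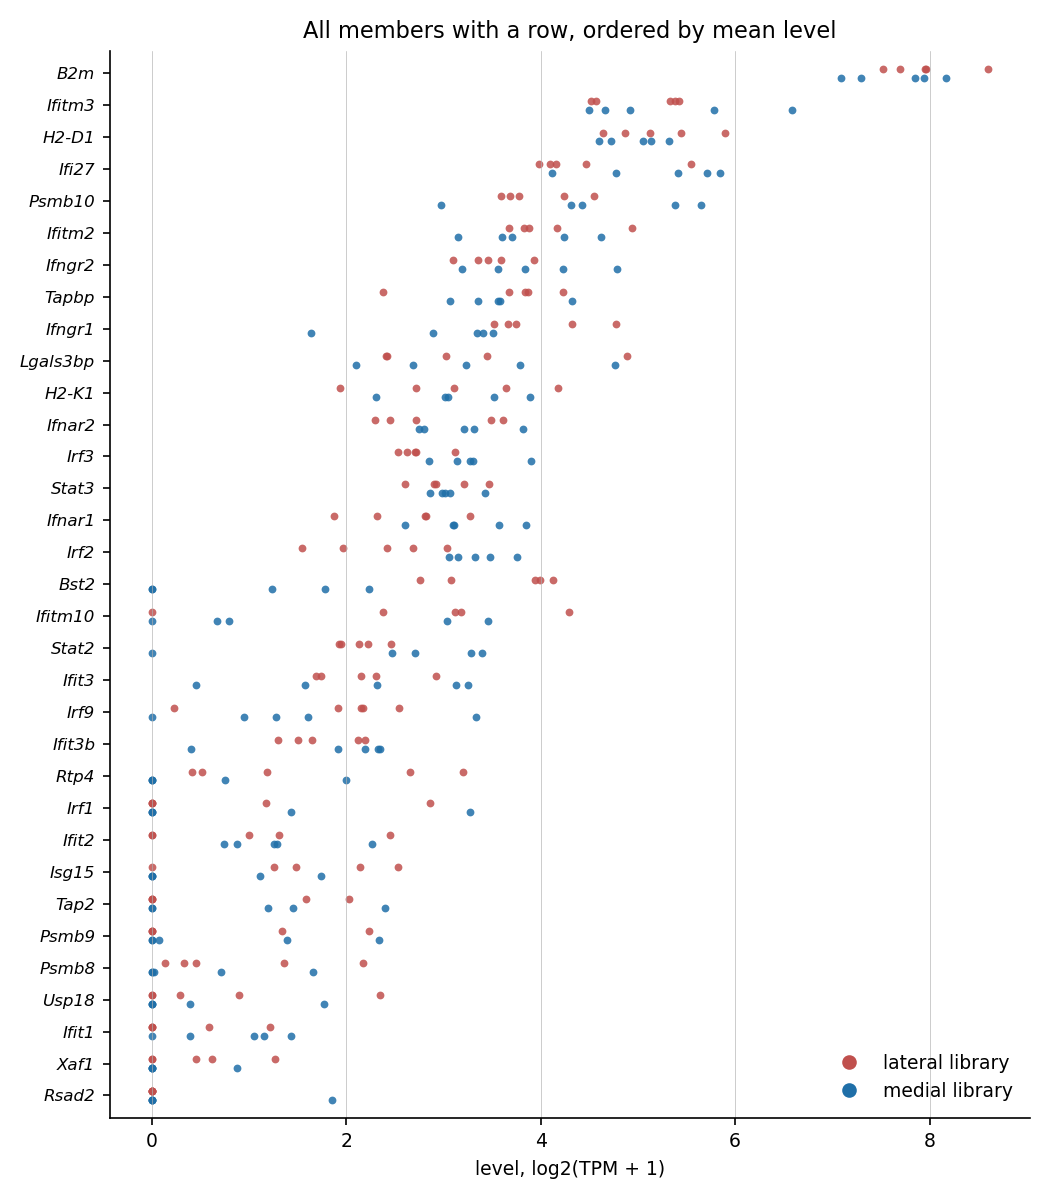
Level of each of the 33 members with a row, on a log2(TPM + 1) scale, with 1 point per library (red, 5 lateral; blue, 5 medial) and genes ordered by mean level. B2m stands alone at the top, and 11 members at the bottom have a mean under 2 TPM.

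Of the 25 tested members, 1 was called towards lateral, against 0.385% of all genes tested, and none towards medial, against 1.1% (1.48% in either direction). The called gene was Bst2. At an unadjusted p under 0.05, limma gave 2 members towards lateral, Bst2 and Ifngr1 (all genes, 3.03%), and 1 towards medial, Irf2 (all genes, 12.3%). The libraries of the regions did not overlap for the same 3 genes, 2 with lateral above medial (all genes, 0.859%) and 1 with medial above lateral (all genes, 3.39%). Log2 differences were negative for 15 of the 25 (60.0%), beside 68.7% of all genes tested. The median log2 difference was -0.08 over the members and -0.21 over all genes. The median of the members changed sign with the scaling, to 0.12 under median-ratio scaling and 0.18 under quantile normalization.

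**Figure D2:**
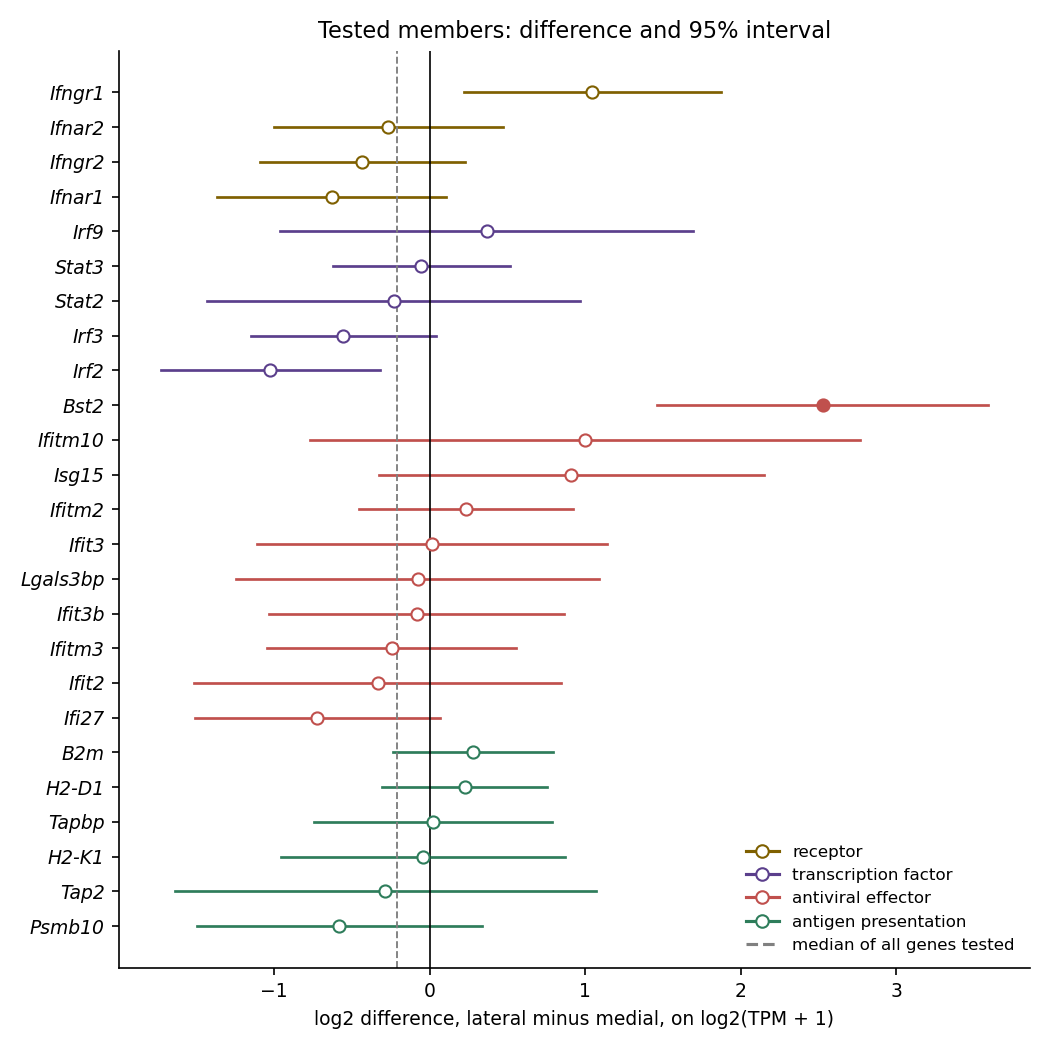
Log2 difference (lateral minus medial, on log2(TPM + 1)) of the 25 tested members with its 95% interval from limma, coloured by role; the filled point marks an adjusted p under 0.05 and the dashed line the median of all genes tested, -0.21. The interval of Bst2, 1.46 to 3.59, lies apart from those of most other members.

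Bst2 encodes tetherin, a membrane protein that holds budding enveloped viruses at the cell surface. Its gene lies on chromosome 8 from 71534255 to 71537456 on the minus strand of GRCm38, and no other gene of GENCODE M21 overlaps it. Lateral replicates 1 to 5 were at 14.9, 16.5, 5.76, 14.4 and 7.43 TPM, and medial replicates 1 to 3 at 2.44, 3.70 and 1.36 TPM. Medial replicates 4 and 5 were listed at 0. Every lateral library was thus above every medial one, and the lateral libraries fell into 3 high and 2 lower values. The log2 difference was 2.53 with a standard error of 0.49 (95% interval 1.46 to 3.59, limma adjusted p = 0.0262), and the exact two-sided permutation p, which the lack of overlap fixes at the smallest value that 5 against 5 libraries can give, was 0.00794. The call ended when any of lateral replicates 1, 2 and 4 and medial replicates 3, 4 and 5 was left out, with an adjusted p of 0.0528 to 0.0659, and with a pseudocount of 0.1 (log2 difference 4.02, adjusted p = 0.0913). A model with the replicate number as a block also ended it, and the call held in 14 of 22 alternatives. The log2 difference was 1.35 with a pseudocount of 5 (adjusted p = 0.0169) and 2.95 without the AY036118-low libraries of both regions (adjusted p = 0.0441).

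Microglia markers moved in the same direction as Bst2. All 12 had higher lateral values, as did 4884 of all 15596 genes tested. Of the 12, 3 were called (C1qa, Tmem119 and Ctss), against 0.385% of all genes towards lateral. An unadjusted limma p under 0.05 was found for 11 (all genes towards lateral, 3.03%). The median log2 difference of the 12 markers was 0.91, beside -0.21 over all genes. Their summed level was 505 to 777 TPM in lateral and 261 to 511 TPM in medial libraries, so the regions met only at lateral replicate 5 and medial replicate 3. None of the 12 was at 0 in all libraries. Oligodendrocyte markers, with 9 of 10 log2 differences positive and none called, were at 310 to 1037 against 113 to 514 TPM. Endothelial markers, with 6 positive and 5 negative log2 differences and none called, were at 280 to 587 against 295 to 536 TPM. In captured tissue, fewer cells of a type and less RNA per cell cannot be told apart, and the part of these cell types in the Bst2 difference was not tested.

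**Figure D3:**
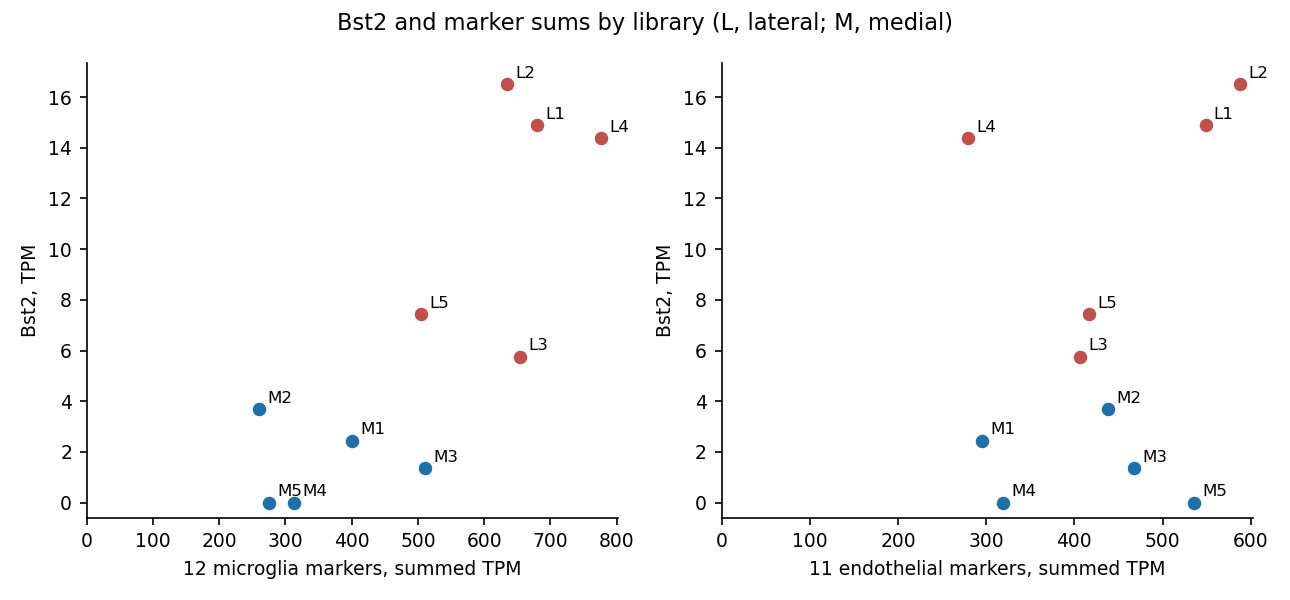
Bst2 (TPM) against the summed TPM of 12 microglia markers (left) and 11 endothelial markers (right), with 1 point per library (red L1 to L5, lateral; blue M1 to M5, medial). On the left the lateral libraries lie at 505 to 777 TPM and the medial ones at 261 to 511 TPM, while on the right the regions overlap.

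Among the receptors, the chains of the interferon-gamma receptor pointed in opposite directions, and neither passed. Ifngr1, the ligand-binding chain, was at 19.0, 12.4, 10.5, 26.4 and 11.7 TPM in lateral replicates 1 to 5 and at 10.4, 9.18, 6.44, 9.60 and 2.104 TPM in medial ones. The lowest lateral library and the highest medial one, 10.5 and 10.4 TPM, almost touched, and the log2 difference was 1.05 (95% interval 0.22 to 1.87, limma adjusted p = 0.216). Ifngr2, the accessory chain needed for signalling, was at 9.98, 9.26, 11.1, 14.3 and 7.55 TPM in lateral and 17.7, 13.3, 10.8, 8.11 and 26.5 TPM in medial libraries. Its regions overlapped, with a log2 difference of -0.43 (95% interval -1.09 to 0.23, adjusted p = 0.536). The ratio of Ifngr1 to Ifngr2 within a library was 0.944 to 1.90 in lateral and 0.0793 to 1.18 in medial libraries. Medial replicate 5 held both the lowest Ifngr1 and the highest Ifngr2 of all 10 libraries, and without it the log2 difference of Ifngr1 was 0.72 (adjusted p = 0.328).

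The receptor chains for type I interferon had overlapping ranges of level. The ratio of Ifnar1 to Ifnar2 within a library varied widely, from 0.259 to 2.22 in lateral and from 0.387 to 1.89 in medial libraries. Ifnar1 was at 6.003, 2.66, 3.97, 8.67 and 6.06 TPM in lateral and at 10.9, 13.4, 5.07, 7.60 and 7.64 TPM in medial libraries. Both highest values were medial, but the regions overlapped (log2 difference -0.63, 95% interval -1.37 to 0.11, limma adjusted p = 0.405). Ifnar2 ranged from 3.91 to 11.2 TPM in lateral and from 5.73 to 13.1 TPM in medial libraries (log2 difference -0.27, adjusted p = 0.755), and its difference was near 0 (0.00168) under quantile normalization. GENCODE M21 places Gm21970 over Ifnar2 on the same strand, so their reads may be shared.

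Of the transcription factors, Irf2 and Irf3 had the smallest p, both with higher medial values. Irf2, known as an antagonist of Irf1 at shared sites, was at 5.45, 2.91, 7.22, 1.93 and 4.35 TPM in lateral and 12.5, 7.35, 9.03, 10.2 and 7.91 TPM in medial libraries. The lowest medial library lay just above the highest lateral one. Its log2 difference was -1.02 (95% interval -1.73 to -0.32), with a limma adjusted p of 0.155. Over all 22 alternatives it ran from -1.20 to -0.64 with an adjusted p of 0.107 to 0.358. Irf3, which switches on interferon-beta when viral nucleic acid is sensed, was at 4.79, 5.17, 7.68, 5.53 and 5.58 TPM in lateral and 8.88, 8.67, 6.22, 13.9 and 7.85 TPM in medial libraries. Only lateral replicate 3 and medial replicate 3 crossed, and the log2 difference was -0.55 (95% interval -1.15 to 0.04, adjusted p = 0.360). Genes on the other strand overlap Irf2 (Gm45479, Gm31172 and Gm45481) and Irf3 (Bcl2l12), and whether counting used strand is not stated, so reads of such pairs may not be told apart.

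**Figure D4:**
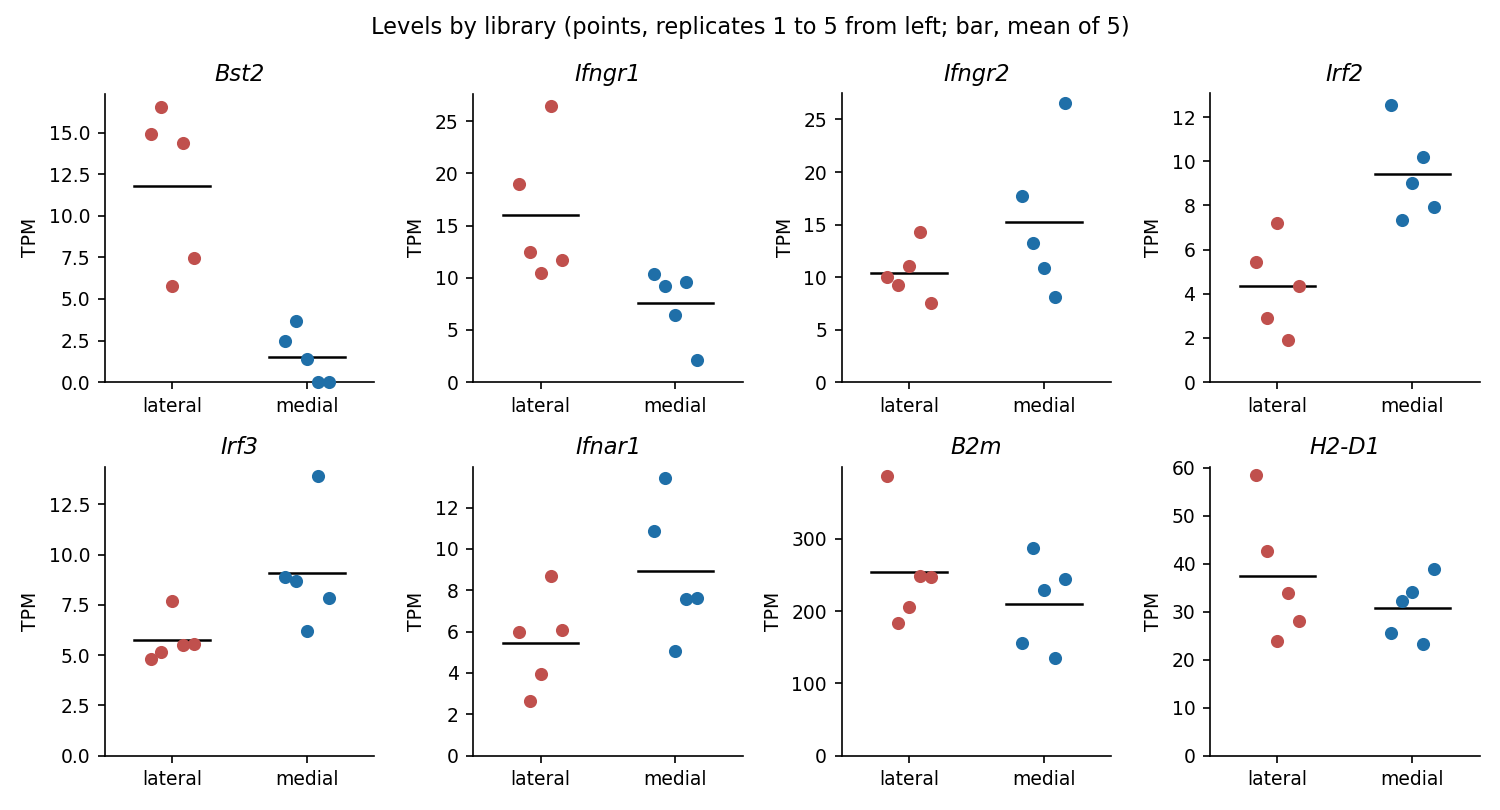
TPM of 8 members in each library (red, lateral; blue, medial; replicates 1 to 5 from left within a region), with a bar at the mean of 5. The regions do not overlap for Bst2, Ifngr1 and Irf2, and they overlap for Ifngr2, Irf3, Ifnar1, B2m and H2-D1.

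Stat2 and Irf9, of the ISRE-binding complex, were low and uneven. Stat2 was at 2.80, 3.68, 2.87, 3.38 and 4.50 TPM in lateral libraries and at 9.51, 4.54, 8.71 and 5.52 TPM in medial replicates 1, 2, 3 and 5, while medial replicate 4 was listed at 0. Those 4 medial values were above all lateral ones, and with the library at 0 the log2 difference was -0.23 (95% interval -1.43 to 0.97, limma adjusted p = 0.880). Without medial replicate 4 it was -0.82 (adjusted p = 0.320). Irf9, the DNA-binding subunit, was at 3.50, 2.78, 0.175, 3.44 and 4.82 TPM in lateral and at 1.42, 9.12, 2.06 and 0.937 TPM in medial replicates 1, 2, 4 and 5, with medial replicate 3 listed at 0 (log2 difference 0.37, adjusted p = 0.822). Rnf31 overlaps Irf9 on its strand. Stat3, which also serves interleukin-6 type cytokines, was at 5.10 to 10.05 and 6.29 to 9.76 TPM (log2 difference -0.05, positive under the 3 other scalings, adjusted p = 0.946). Irf1 was listed at 0 in 3 libraries of each region and reached 6.30 TPM in lateral replicate 2 and 8.68 TPM in medial replicate 3.

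The antiviral effectors other than Bst2 gave no call, and their log2 differences had both signs: over the 10 tested, Bst2 included, 5 were positive and 5 negative. Isg15, a ubiquitin-like protein that is joined to other proteins, was at 3.42, 1.80, 1.39 and 4.78 TPM in lateral replicates 2 to 5 and at 1.17 and 2.35 TPM in medial replicates 1 and 3. It was listed at 0 in lateral replicate 1 and in medial replicates 2, 4 and 5. The regions overlapped, with a log2 difference of 0.91 (95% interval -0.33 to 2.15, limma adjusted p = 0.479). Ifi27, an interferon-inducible gene, was at 45.6, 21.2, 16.9, 16.1 and 14.8 TPM in lateral and 16.4, 41.6, 56.4, 26.3 and 51.5 TPM in medial libraries. Lateral replicate 1 and medial replicate 1 each sat with the other region (log2 difference -0.72, 95% interval -1.51 to 0.07, adjusted p = 0.371). Ifitm10 was placed in this group by the listing used here, and its promoters held neither motif. It was at 8.08, 4.20, 18.5 and 7.68 TPM in lateral replicates 1 to 4 and at 0.588, 10.03, 0.735 and 7.23 TPM in medial replicates 2 to 5, with lateral replicate 5 and medial replicate 1 listed at 0 (log2 difference 1.00, adjusted p = 0.603).

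Ifitm2 and Ifitm3, small membrane proteins that block the entry of viruses, ranged from 11.8 to 29.7 and from 21.95 to 41.9 TPM in lateral libraries. In medial libraries they ranged from 7.88 to 23.6 and from 21.6 to 94.8 TPM. The adjusted p was 0.771 for Ifitm2 and 0.797 for Ifitm3. Their longest open reading frames share 80.8% of aligned bases. Ifit2, Ifit3 and Ifit3b, of a family that binds foreign RNA, stayed at 8.54 TPM or below in every library. Ifit3 and Ifit3b have open reading frames of 1212 bases with 99.1% identity and promoters with 99.2% identity over 260 aligned bases, so reads of the pair may have been split between them. Ifit3 had a log2 difference of 0.02 (adjusted p = 0.993) and Ifit3b of -0.08 (adjusted p = 0.948), the latter positive, at 0.08, under median-ratio scaling. Lgals3bp, a secreted galectin-binding glycoprotein, reached 28.7 TPM in lateral replicate 1 and 26.1 TPM in medial replicate 2 and was at 12.9 TPM or below elsewhere.

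Effectors kept out by the filter were present in scattered libraries. Rtp4, a chaperone of membrane receptors, was at 8.19, 0.335, 1.27, 0.435 and 5.31 TPM in lateral libraries and at 0.691 and 2.99 TPM in medial replicates 1 and 5, with medial replicates 2 to 4 listed at 0. It thus had a value above 0 in all lateral and in 2 of 5 medial libraries. Without the filter its log2 difference was 1.04 (95% interval -0.30 to 2.39, limma adjusted p = 0.518). Rsad2, encoding the antiviral enzyme viperin, was listed above 0 only in medial replicate 2, at 2.61 TPM. Usp18, which removes Isg15 from proteins, reached 4.09 TPM in lateral replicate 5, and Xaf1 and Ifit1 stayed at 1.70 TPM or below. Without the filter none of the 8 such members passed (adjusted p of 0.518 to 0.980).

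Among the 9 tested members whose promoter held the ISRE letters, Bst2 was the call, 5 had positive and 4 negative log2 differences, and these ran from -1.02 (Irf2) to 2.53 (Bst2) with a median of 0.02. Among the 6 with the GAS letters, Bst2 was again the call, 1 had a positive and 5 had negative log2 differences, and the median was -0.30. Over all genes tested 68.7% had negative log2 differences, the median was -0.21, and 1.48% were called. Isg15 and Ifit3, printed above beside Bst2, were among those not called.

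None of the 6 tested antigen presentation members was called, with 3 positive and 3 negative log2 differences and a median of -0.01. B2m was at 387, 183, 206, 249 and 248 TPM in lateral and at 156, 288, 229, 135 and 245 TPM in medial libraries. The regions overlapped, with a log2 difference of 0.28 (95% interval -0.24 to 0.80, limma adjusted p = 0.622). H2-D1 was at 58.4, 42.6, 23.9, 33.8 and 28.1 TPM in lateral and 25.5, 32.2, 34.04, 23.3 and 38.8 TPM in medial libraries (log2 difference 0.23, 95% interval -0.31 to 0.76, adjusted p = 0.706). H2-K1 was at 17.1, 5.59, 2.82, 11.5 and 7.66 TPM in lateral and 3.96, 7.29, 10.4, 7.12 and 13.9 TPM in medial libraries (adjusted p = 0.9752). Its log2 difference was -0.04, and it was positive under all 3 other scalings (0.02 to 0.19). All 3 genes were highest in lateral replicate 1, which also had the highest summed mural and leptomeningeal markers, 572 TPM where other libraries had 42.9 to 203 TPM. Its haemoglobin was at 4106 TPM, where other libraries ranged from 73.6 TPM (medial replicate 5) to 3132 TPM (lateral replicate 5). The part of those cells or of blood in the class I levels was not tested. H2-D1 stood above H2-K1 in every library, by 2.95 to 8.48 times in lateral and 2.80 to 6.45 times in medial libraries. Their open reading frames share 92.0% of aligned bases, so this split depends on how reads were assigned.

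The level of B2m relative to the sum of H2-D1 and H2-K1 was 3.799 to 7.72 in lateral and 4.46 to 7.28 in medial libraries, with wide overlap. Tapbp, encoding tapasin, was at 4.20 to 17.8 TPM in lateral and 7.37 to 19.1 TPM in medial libraries (limma adjusted p = 0.985). Tap2, a subunit of the peptide carrier, was listed at 0 in 5 of the 10 libraries and reached 4.30 TPM in medial replicate 3. Among 15 tested genes of a wider class I and antigen processing list none was called. The 15 included H2-Ke6 (log2 difference 0.16, adjusted p = 0.861), which bears an H2 symbol but is not a class I chain. The smallest p belonged to H2-M3, a nonclassical heavy chain (0 to 3.73 TPM in lateral, 2.25 to 9.79 TPM in medial, log2 difference -1.64, adjusted p = 0.149), and Erap1, a peptide-trimming protease (log2 difference -0.97, adjusted p = 0.274). Log2 differences were negative for 12 of these 15 (80.0%), beside 68.7% of all genes tested. The median log2 difference was -0.17, and over all genes tested it was -0.21.

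Subunits of the immunoproteasome, the interferon-inducible form, were far below the constitutive subunits they replace. Psmb8 was at 0.102, 1.57, 0.369, 3.53 and 0.260 TPM in lateral libraries, at 0.642, 0.0138 and 2.17 TPM in medial replicates 1, 2 and 5, and listed at 0 in medial replicates 3 and 4. Its counterpart Psmb5 was at 340 to 486 TPM in lateral and 392 to 591 TPM in medial libraries (log2 difference -0.10, limma adjusted p = 0.816). Psmb9 reached 4.07 TPM and was listed at 0 in 5 libraries, while its counterpart Psmb6 was at 185 to 283 TPM. On the genome Psmb9 and Tap1 overlap on opposite strands.

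Psmb10 was the exception in level. It was at 22.3, 12.7, 18.0, 11.1 and 11.8 TPM in lateral and 6.85, 18.8, 49.2, 20.5 and 40.8 TPM in medial libraries. The highest values were in medial replicates 3 and 5 and the lowest in medial replicate 1, so the medial range enclosed the lateral one (log2 difference -0.58, 95% interval -1.50 to 0.34, limma adjusted p = 0.556). Its counterpart Psmb7 was 3.54 to 8.03 times as high in lateral and 1.36 to 8.87 times as high in medial libraries. None of 14 constitutive proteasome genes was called. The smallest p belonged to Psma3 (log2 difference -0.41, adjusted p = 0.280) and Psma7 (-0.33, adjusted p = 0.375).

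**Figure D5:**
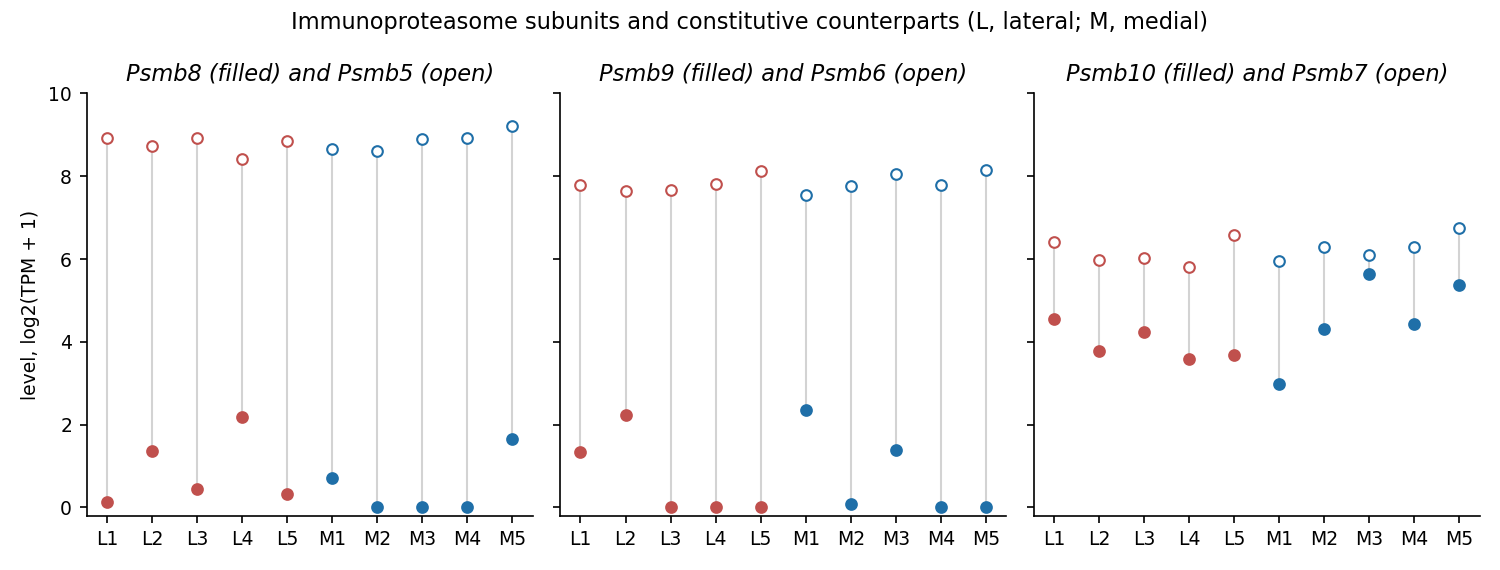
Levels, on a log2(TPM + 1) scale, of the immunoproteasome subunits Psmb8, Psmb9 and Psmb10 (filled) and their constitutive counterparts Psmb5, Psmb6 and Psmb7 (open) in each lateral (L, red) and medial (M, blue) library. Psmb8 and Psmb9 stay at 4.07 TPM or below in all libraries, and Psmb10 comes within 1.36 times of Psmb7 in medial replicate 3.

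Ligands, signalling genes, sensors and other interferon-induced genes gave no call. Of 21 interferon genes listed, Ifna2 had a row and was listed above 0 in medial replicate 4 alone, at 4.95 TPM. Ifnb1, Ifng and Mx1 had no row. Among 8 tested signalling genes none was called. Ptpn2, a phosphatase that turns off Janus kinases and STATs, was at 5.80 to 16.3 TPM in lateral and 15.0 to 24.4 TPM in medial libraries (log2 difference -1.16, limma adjusted p = 0.0613). Irf8, a transcription factor of microglia and other myeloid cells, was at 1.29 to 8.91 TPM in lateral libraries and at 1.77 TPM or below in medial ones (log2 difference 1.47, adjusted p = 0.162). None of 7 tested genes of nucleic acid sensing was called, and the smallest p belonged to Adar, an RNA-editing enzyme (log2 difference -0.35, adjusted p = 0.475), and Rnf135 (-0.59, adjusted p = 0.700). Of 73 other interferon-induced genes 28 had a row and 18 were tested, with 8 positive and 10 negative log2 differences, a median of -0.06 and no call. Pnpt1 (-0.66, adjusted p = 0.318) and Igtp (-1.11, adjusted p = 0.335) had the smallest p.

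Of 6 tested genes of a class II list 1 was called, against 1.48% of all genes tested in either direction. The 6 were Ctss, Rfx5, Rfxap, Rfxank, H2-DMa and H2-DMb1. The filter kept out H2-Aa, H2-Ab1, H2-Eb1 and Cd74. Log2 differences were positive for 4 and negative for 2, with a median of 0.38. Cd74, the invariant chain, and H2-Eb1 were listed at 0 in all 10 libraries. H2-Aa reached 0.814 TPM in 1 library and H2-Ab1 1.70 TPM in 1 of the 2 libraries that listed it. The called gene was Ctss, encoding cathepsin S, which trims the invariant chain and is also on the microglia list. It was at 92.4, 88.7, 58.5, 126 and 77.9 TPM in lateral and 48.1, 36.0, 58.9, 32.8 and 24.9 TPM in medial libraries, with lateral replicate 3 just under medial replicate 3 (log2 difference 1.14, limma adjusted p = 0.0388).

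Markers of other cell types were also read in the same libraries. Astrocyte markers summed to 842 to 1170 TPM in lateral and 1025 to 1355 TPM in medial libraries. Of these markers 8 of 10 had negative log2 differences, beside 68.7% of all genes tested. None was called (Gja1, log2 difference -1.05, limma adjusted p = 0.128, and Slc1a3, -0.59, adjusted p = 0.199). Gfap (1.61, adjusted p = 0.239) and Aqp4 (0.02, adjusted p = 0.979) had positive log2 differences. Oligodendrocyte genes with the smallest p were Mobp (1.37, adjusted p = 0.0691) and Mbp (1.35, adjusted p = 0.141). Endothelial ones were Ly6a (0.56, adjusted p = 0.395) and Tek (0.77, adjusted p = 0.436). Of 6 tested mural and leptomeningeal genes 4 had positive and 2 negative log2 differences and none was called, with the smallest p for Tagln (2.11, adjusted p = 0.274) and Col1a2 (-0.98, adjusted p = 0.404). Tagln was at 77.7 TPM in lateral replicate 1 and at 5.98 TPM or below in the other 9 libraries. Of 14 macrophage and blood immune markers 4 had a row and none passed the filter, with sums of 0 to 7.52 TPM in lateral and 0.113 to 23.6 TPM in medial libraries. Of 5 ependymal markers 1 was tested, Rarres2 (-0.37, adjusted p = 0.738). Haemoglobin genes all had positive log2 differences without a call (Hba-a1, 1.01, adjusted p = 0.653, and Hba-a2, 1.05, adjusted p = 0.675). Among the 14 striatal neuron markers, all tested, log2 differences were positive for 6 and negative for 8, with a median of -0.02. Of them 1 was called, Gad2, a GABA-synthesizing enzyme (-0.90, adjusted p = 0.0133). Of all genes tested 1.1% were called towards medial.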

How the data were processed

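Geo-seq expression was measured in 5 lateral and 5 medial shell libraries. The deposited values are TPM, scaled by the authors to 1000000 per library. GRCm38 (mm10), featureCounts 1.6.3, StringTie 1.3.4, HISAT2 2.1.0 and fastp 0.20.0 appear, without roles, per the submitters' processing notes. Annotation, strand and gene filter are not given there. TPM keeps no depth, so no counting interval is given. limma 3.58.1 in R 4.3.3 was run on log2(TPM + 1) with a mean-variance trend, over genes with at least 1 TPM in at least 5 libraries, with Benjamini-Hochberg adjustment over all of them, and was tested on simulated data. Low values are understated on that scale. Bst2 also had an exact permutation test (scipy 1.17.1). All 20483 symbols occur in GENCODE M21, used for coordinates.

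Members and lists were chosen with earlier results of these data known. Every library is given for the 12 tested members with the smallest p, and for Stat2, Irf9, Ifnar1, Ifngr1, B2m and H2-K1; other lists contribute called genes or the 2 smallest p, and Mx1, Ifnb1, Ifng, Cd74 and Psmb5. Other genes were named after their values were seen. Alternatives changed pseudocount, filter, scaling, variance model, replicate block and libraries. The result of 1 gene fixed by this rule is not reported here.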

Additional observations from a re-analysis of the deposited data

Results flagged for a closer look

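In 6 of 66 groups of 5 libraries (33 members in 2 regions), 1 library stood apart from the other 4 on the log2(TPM + 1) scale, where the gap to its neighbour exceeded 0.71 of the range. Chance gives about 1 in 20 for groups of spread values, a rate that does not apply to this count: a library above 0 among 4 at 0 always stands apart, as for Rsad2 and Xaf1, and a group at 0 throughout never can. Ifit3b was at 0.326 TPM in medial replicate 1, with the other medial libraries at 2.77 to 4.10 TPM. Irf9 was at 0.175 TPM in lateral replicate 3, with the others at 2.78 to 4.82 TPM. Stat2 was listed at 0 in medial replicate 4, with the others at 4.54 to 9.51 TPM. Rsad2 was at 2.61 TPM and Xaf1 at 0.841 TPM in medial replicate 2, with the other medial libraries listed at 0. Usp18 was at 2.40 TPM in medial replicate 4, with the others at 0.315 TPM or below.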

How the results depend on the processing

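Over 22 alternatives no member was called towards medial, and no member other than Bst2 was called in either direction. Bst2 kept its direction in all 22 and its call in 14, so the count towards lateral was 0 with a pseudocount of 0.1, 0 with the replicate block, and 0 to 1 without single libraries. Calls over all genes towards lateral numbered 34 without a mean-variance trend, 15 without the AY036118-low libraries and 27 to 68 without single libraries. Towards medial they numbered 107 with a pseudocount of 0.1, 82 under median-ratio scaling, 100 under quantile normalization, 111 without the trend, 35 without the AY036118-low libraries and 56 to 187 without single libraries; the cause was not tested. The median log2 difference of members ran from -0.34 to 0.01 without single libraries. Of the 25 tested members, 10 changed sign in at least 1 alternative, none of them called. Same-numbered libraries did not deviate together (correlations of -0.05 to 0.04, none best with its own number), so no pairing by number was seen. Spread between single libraries could hide a shared animal, so pairing is not excluded. With the replicate block 19 and 45 genes were called towards lateral and medial, and Bst2 had a limma adjusted p of 0.0536. Depth is unknown, which limits what a value near 0 can show.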

Other observations

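Some genes around the members were picked out after their values were seen. H2-T23, the nonclassical class I chain Qa-1, was at 2.77 to 25.1 TPM in lateral and 1.73 to 11.9 TPM in medial libraries (log2 difference 1.15, limma adjusted p = 0.301), opposite in sign to H2-M3. Rfx5, a factor that binds class II promoters, was at 4.38 TPM or below in lateral and at 4.11 to 9.27 TPM in medial libraries (log2 difference -1.49, adjusted p = 0.161). H2-DMa, a class II peptide exchanger, was at 11.6 to 19.6 TPM in lateral and 8.70 to 12.4 TPM in medial libraries (log2 difference 0.53, adjusted p = 0.287). Myd88, an adaptor of Toll-like receptors, had no lateral library above 0, and in 3 of 5 medial libraries it was above 0, up to 5.95 TPM. Mx2 was listed at 0 in all 5 medial libraries and in 2 lateral ones, and reached 6.32 TPM.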
